A study of Mus musculus with 16 samples.

Results

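The genes described are 4 members of the Ly6 family, Ly6a, Ly6e, Ly6c1 and Ly6c2, and 5 members of the Schlafen family, Slfn1, Slfn2, Slfn5, Slfn8 and Slfn9. They are 9 of the 54331 genes in the deposited table and were found by their symbols. The set was chosen from earlier results on the same libraries, in which Ly6a, Ly6e and Slfn5 already stood out when IL-33 was set against the empty virus in wild type and when the genotypes were compared. Values in those comparisons are therefore given as a description, without a p; where members past the threshold are counted there, the share over all genes stands beside the count and nothing is read from it. Ly6c2 had a mean of 3.37 normalized counts and was below the level of 10 needed for testing, so 8 of the 9 members were tested. Slfn1 passed that level through the libraries in which it was high, since its wild-type NULL pair stood near 5.

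RNA was sequenced from primary lung fibroblasts of C57BL/6 mice, 72 h after infection with an adenovirus. The libraries from mice labelled ST2 KO (KO) comprised 1 with an insert for mature IL-33 (M), 1 with an insert for full-length IL-33 (FL) and 2 with no insert (NULL), and the wild-type (WT) libraries had the same 1, 1 and 2. All 8 libraries thus came from infected cells, and none was uninfected. ST2, encoded by Il1rl1, is the receptor through which IL-33 acts from outside the cell; IL-33 itself is an alarmin held in the nucleus in its full-length form. Whether the 2 NULL libraries of a genotype were grown or taken separately is not in the labels, so a p-value here covers the spread among these libraries alone, part of which may be technical.

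Some facts of the series bear on what follows. Normalized totals per library lay between 2.39e+07 and 2.92e+07. Il33 was read at 81110 normalized counts in the KO M library and 1080221 in the KO FL library, against 216 and 214 in the KO NULL pair. In WT it was 248956 in the M library and 593840 in the FL library, against 193 and 201 in the NULL pair, so the amount of insert differed between M and FL in both genotypes. Il1rl1 was low everywhere and lay between 69.2 and 85.2 normalized counts in KO and between 18.3 and 106 in WT, so its total did not separate the genotypes, which were taken from the labels. Fibroblast genes dominated every library, with a summed level of the 9 fibroblast markers of 964609 to 1031518 in KO and 732991 to 1376477 in WT. Other cells were present at lower levels, with all 10 macrophage markers detected. Cd3e and Cd3g of the T and NK cell list and Ngp of the neutrophil list were at 0 in all libraries. Other genes of these lists were detected, and 1 of 9 (Lck) and 3 of 6 (Mmp8, Cxcr2 and Csf3r) reached a mean of 10. Mmp8 was at 125 to 158 normalized counts in KO and 256 in WT M, against 24.8 to 42.8 in the other WT libraries. Csf3r overlapped between the genotypes, at 7.31 to 22.8 in KO and 6.98 to 20.8 in WT. The WT M library stood apart from the other 7. Its summed macrophage markers reached 44593 normalized counts, against 18980 to 22581 in the others, and its summed mesothelial markers reached 3654, against 387 to 1070.

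Ly6 proteins are small cell-surface proteins held by a lipid anchor, and Schlafen proteins are intracellular proteins first known from developing thymocytes. Genes of both families are transcribed in response to interferons: interferons act through cell-surface receptors and JAK kinases, and the promoters of many responding genes hold an interferon-stimulated response element or, for type II interferon, a gamma-activated site. In mouse, Ly6a is also known as Sca-1, a marker of progenitor cells and of some fibroblasts. Ly6e restricts the entry of several viruses, and the Ly6c proteins mark monocytes, some T cells and endothelium.

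The Schlafen members lie within 1 cluster on chromosome 11 and the Ly6 members within 1 cluster on chromosome 15 (GRCm38, GENCODE annotation). Slfn5 spans chr11:82951349-82964840, Slfn9 chr11:82978390-82991830, Slfn8 chr11:83002158-83020810, Slfn2 chr11:83065112-83070678 and Slfn1 chr11:83116849-83122670. Ly6e spans chr15:74955051-74959905, Ly6a chr15:74994877-74998031, Ly6c1 chr15:75044018-75048830 and Ly6c2 chr15:75108158-75111970. All 9 are annotated as protein-coding. Promoter windows of 300 bases around the RefSeq gene start were found for 7 of the 9 members on GRCm38.p6, and Ly6a and Ly6e are named only.

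The windows were searched on both strands for the core of the interferon-stimulated response element, written as GAAA and a second GAAA separated by any 2 bases. It was present in Slfn5, Slfn8 and Slfn9, which are 3 of the 7 members with a window, and in 3.44% of all 32851 windows. The longer form, in which the second GAAA is followed by CT, was present in Slfn8 and Slfn9 and in 0.271% of all windows; it overlaps the shorter form by construction. The 9-base gamma-activated site, TTC and GAA separated by any 3 bases, was in none of the 7 and in 8.30% of all windows. A match is a description of the letters and was not tested as a binding site. The stretches of 120 bases below are shown because they hold the matches in the 3 long Schlafen genes, with the match in capitals, and because Slfn1 and Slfn2, with no match, are the members that were highest in the WT M library. They are given 5′ to 3′ on the strand of the gene. The Slfn5 stretch is chr11:82951912-82952031 on the plus strand, Slfn8 is chr11:83020811-83020930 and Slfn9 is chr11:82991831-82991950 on the minus strand, and Slfn1 is chr11:83116700-83116819 and Slfn2 is chr11:83064992-83065111 on the plus strand.
Slfn5: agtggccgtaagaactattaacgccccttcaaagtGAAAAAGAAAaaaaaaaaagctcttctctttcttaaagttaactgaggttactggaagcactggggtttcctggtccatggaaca
Slfn8: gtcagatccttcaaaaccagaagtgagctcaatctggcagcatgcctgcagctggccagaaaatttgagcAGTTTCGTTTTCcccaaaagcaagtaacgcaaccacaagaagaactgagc
Slfn9: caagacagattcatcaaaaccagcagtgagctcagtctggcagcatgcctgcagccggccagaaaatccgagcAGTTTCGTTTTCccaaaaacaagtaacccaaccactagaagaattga
Slfn1: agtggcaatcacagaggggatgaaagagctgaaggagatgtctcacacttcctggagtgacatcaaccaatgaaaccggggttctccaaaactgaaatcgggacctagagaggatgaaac
Slfn2: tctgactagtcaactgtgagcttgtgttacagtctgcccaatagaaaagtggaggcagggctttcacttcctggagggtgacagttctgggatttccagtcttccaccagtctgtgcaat

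In Slfn5 the match lies at -155 to -146 from the RefSeq start and reads in the direction of the gene. That start, at 82952102, lies inside the GENCODE span of Slfn5, which begins at 82951349. The printed Slfn5 stretch is thus upstream of the RefSeq start but within the GENCODE gene. In Slfn8 the match lies at -50 to -39 and in Slfn9 at -47 to -36, in the opposite direction in both. The capitals of Slfn8 and Slfn9 are the same 12 letters. Their whole windows shared 80.5% of aligned bases, against 62.3% for Ly6c1 and Ly6c2 and 46.1% for Slfn1 and Slfn2.

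Ly6a, the Sca-1 gene, was high in every KO library and low in the WT NULL pair. It stood at 630 normalized counts in the KO M library, 514 in the KO FL library and 884 and 844 in the KO NULL pair. In WT it was 422 with M, 393 with FL and 93.4 and 113 in the NULL pair. All 4 KO values lay above all 4 WT values, and the WT libraries with IL-33 lay between the WT NULL and the KO values. The mean of the KO NULL pair was 864 ± 28.6 and that of the WT NULL pair 103 ± 13.8 normalized counts (SD, n = 2 each), a ratio of 8.38. With IL-33 the WT mean was 3.95 times that of WT NULL, while the KO mean was 0.662 times that of KO NULL.

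Ly6e, an antiviral surface protein, was the most abundant member in every library. It was read at 10907 normalized counts with M and 10306 with FL in KO, against 12046 and 11889 in the KO NULL pair. The WT values were 6267 with M and 5790 with FL, against 2379 and 2370 in the WT NULL pair. The order was the same as for Ly6a, without overlap between the genotypes. The NULL pairs averaged 11968 ± 111 in KO and 2374 ± 5.82 in WT (SD, n = 2 each), a ratio of 5.04, and IL-33 over NULL was 0.886 in KO and 2.54 in WT.

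Ly6c1 and Ly6c2, the Ly6C genes of monocytes and endothelium, were barely expressed. Ly6c1 was at 14.3 normalized counts in KO M, 19.5 in KO FL and 18.6 and 22.3 in KO NULL, against 2.81 in WT M, 17.7 in WT FL and 9.15 and 11.0 in WT NULL. The genotypes overlapped, through the WT FL library, and the lowest value was that of WT M. Ly6c2 ranged over 2.37 to 3.89 in KO and 0.517 to 5.63 in WT, also with its lowest value in WT M. The summed level of 9 endothelial markers was lower in KO, at 233 to 260, than in WT, at 427 to 678. Not all of them went that way, as Tek was at 35.7 to 43.7 in KO and 18.3 to 28.9 in WT. Under NULL, 3 of the 8 tested endothelial markers were lower in KO past the threshold, and 2 of the 8 had a positive difference. Their part in the levels of Ly6a and the Ly6c genes was not tested. In bulk samples, fewer cells of a type and less RNA per cell cannot be told apart.

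Slfn1 and Slfn2 are the short Schlafen proteins, known in mouse from the quiescence of T cells. Slfn1 was at 23.2 normalized counts in KO M, 26.7 in KO FL and 43.7 and 41.7 in KO NULL. In WT it was 71.5 with M, 15.0 with FL and 4.82 and 5.38 in the NULL pair. The WT M library was the highest of all 8, while the other 3 WT libraries lay below every KO library. Slfn2 followed the same order among the WT libraries, with 1461 in WT M, 616 in WT FL and 322 and 358 in WT NULL. Its KO values were 907 with M, 819 with FL and 858 and 914 in the NULL pair; these 4 lay within a narrow range. The KO NULL mean was 8.37 times the WT NULL mean for Slfn1 and 2.61 times for Slfn2.

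Slfn5, Slfn8 and Slfn9 are long Schlafen proteins, which carry a helicase-like region that the short ones lack. Slfn5 was read at 908 normalized counts in KO M, 855 in KO FL and 1036 and 1033 in KO NULL, against 750 in WT M, 685 in WT FL and 255 and 263 in WT NULL. Every KO library lay above every WT library, and the WT NULL pair stood well below the rest. The NULL means were 1035 ± 1.66 in KO and 259 ± 5.81 in WT (SD, n = 2 each), a ratio of 4.0. Slfn8 ran from 379 in KO FL to 523 in the KO NULL pair, against 176 in the WT NULL pair to 388 in WT FL. Its genotypes overlapped only through the KO FL library, which at 379 was just below WT FL at 388. Slfn9 differed from the others in that IL-33 went with higher values in both genotypes. It stood at 1484 in KO M, 1370 in KO FL and 1264 and 1258 in KO NULL, against 1152 in WT M, 1050 in WT FL and 733 and 753 in WT NULL. Its ratio of KO NULL to WT NULL was 1.70, the smallest among the 8 tested members.

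**Figure D1:**
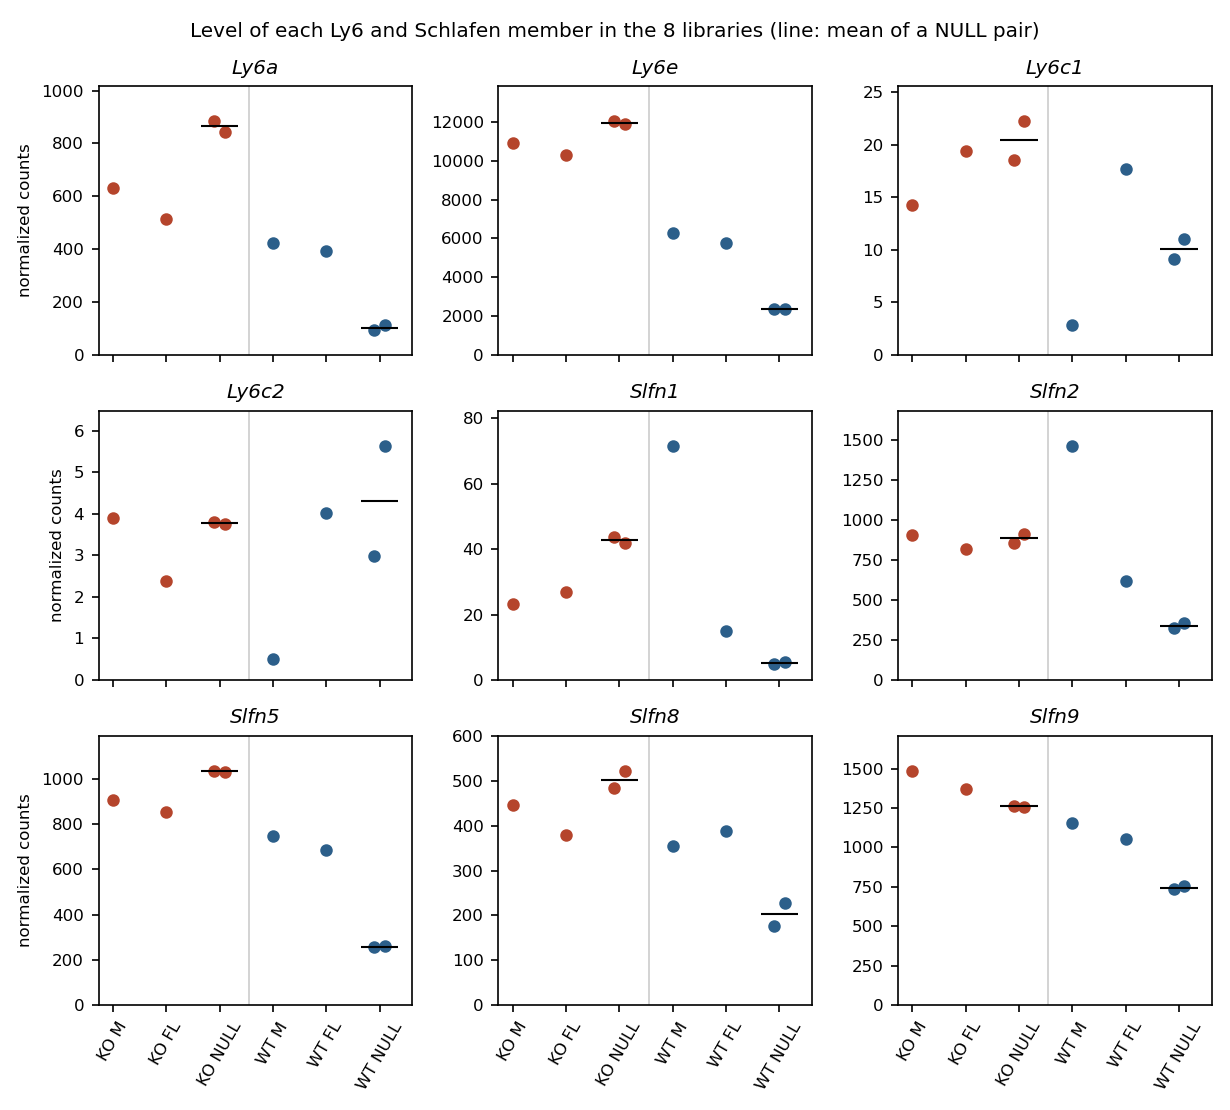
Normalized counts of each member (vertical axis, from 0) in the 8 libraries, grouped by genotype and insert along the horizontal axis, with a line at the mean of each NULL pair. Ly6a, Ly6e, Slfn5 and Slfn9 lie higher in all 4 KO libraries than in all 4 WT libraries, and Slfn1 and Slfn2 peak in the WT M library, at 71.5 and 1461.

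Levels between genes were compared per kilobase of merged exons. In the KO NULL pair the order from high to low was Ly6e at 3163 normalized counts per kb, Ly6a at 717, Slfn2 at 533, Slfn9 at 211, Slfn5 at 164, Slfn8 at 123, Slfn1 at 22.9, Ly6c1 at 12.2 and Ly6c2 at 1.38. The gap between each pair of neighbours was larger than the SD of either. In the WT NULL pair Ly6e again led, at 627 per kb, followed by Slfn2 at 204, Slfn9 at 125 and Ly6a at 85.6. Slfn8 at 49.5 ± 8.97 and Slfn5 at 40.9 ± 0.919 (SD, n = 2) did not differ beyond the spread of Slfn8. Ly6a thus ranked 2 in KO NULL and 4 in WT NULL. Dividing by the median transcript length in place of the merged exons kept Ly6e first in both pairs. In KO NULL it put Slfn5 above Slfn9, at 485 against 327 per kb, and Ly6c1 above Slfn1, at 37.8 against 22.9. In WT NULL it put Slfn5 at 121 per kb, above Slfn8 at 67.3 and level with Ly6a at 120, and Ly6c2 above Slfn1, at 5.91 against 2.74.

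**Figure D2:**
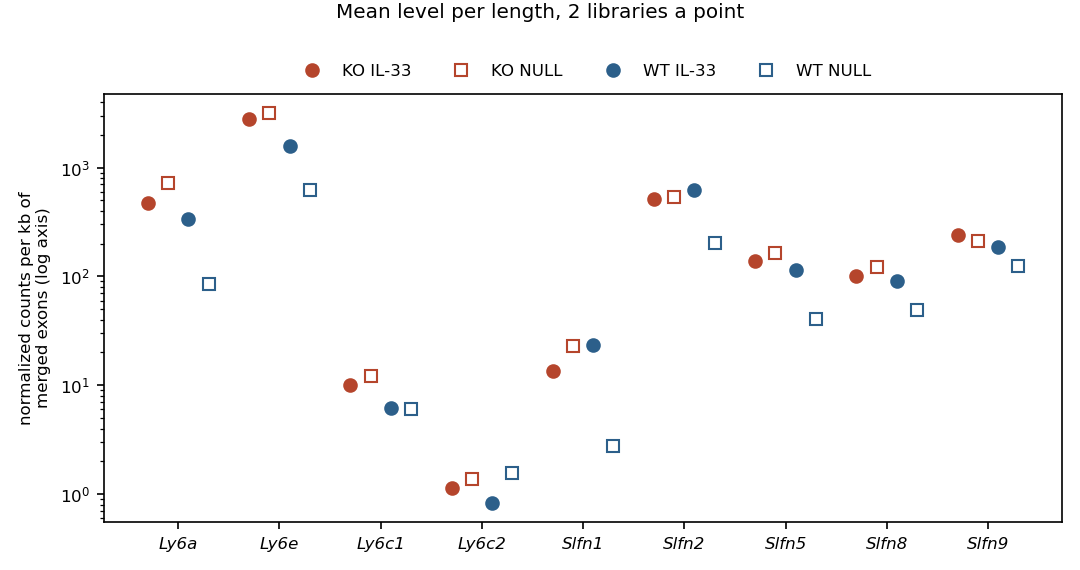
Mean normalized counts per kb of merged exons (log axis) for each member in KO with IL-33, KO NULL, WT with IL-33 and WT NULL, with 2 libraries behind each point. Ly6e is highest in all 4 groups, from 627 per kb in WT NULL to 3163 per kb in KO NULL.

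Similar sequences limit how well some members can be told apart. Of the 31-base words in the transcripts of Ly6c1, 46.8% also occur in other genes, most of them in Ly6c2, and the share was 31.9% for Ly6a, 27.3% for Slfn8, 24.6% for Slfn9, 23.8% for Ly6c2, 13.4% for Slfn5, 10.8% for Slfn2, 1.96% for Slfn1 and 0.422% for Ly6e. The values of Ly6c1, Ly6c2, Ly6a, Slfn8 and Slfn9 are therefore uncertain in how reads were split between copies. Slfn5 also shares 7.99% of its words with its antisense neighbour Slfn5os, which was at 0 in all libraries; whether the counting used strand is not given in the sources used here. Summing the copies gave ratios of KO NULL to WT NULL of 1.68 for Ly6c1 with Ly6c2 and 1.93 for Slfn8 with Slfn9 and Slfn10-ps.

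The comparison of KO with WT under the empty virus asks how the genotype label alone goes with these genes. All 8 tested members were higher in both KO NULL libraries than in both WT NULL libraries, which 33.8% of all tested genes were as well. In limma, 5 members passed the threshold of an adjusted p below 0.05 and were higher in KO, namely Ly6a, Ly6e, Slfn5, Slfn8 and Slfn9, and 2.58% of all tested genes did so. The set was chosen on these values, so nothing is read from that count. Without the first WT NULL library, or either KO NULL library, 3 members passed, namely Ly6a, Ly6e and Slfn5. The median log2 difference over the 8 members was 1.69, beside -0.0022 over all tested genes. Fitted log2 differences ran from 0.76 for Slfn9 to 3.06 for Ly6a. Markers of alveolar type 2 cells moved with this comparison: 4 of the 6 measured were lower in KO NULL past the threshold and none was higher, with a median log2 difference of -6.08. The KO NULL libraries held 1.36 and 0 normalized counts of Sftpc, a surfactant gene, while the WT NULL libraries held 969 and 765; KO M and KO FL held 156 and 162. The summed level of the 7 markers, most of it Abca3, was 2445 to 2653 in KO and 2135 to 4551 in WT. Their part in the members' differences was not tested.

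With IL-33 present in both genotypes the fitted difference was smaller than under NULL for 7 of the 8 tested members, the exception being Ly6c1, at 1.07 with IL-33 and 0.95 under NULL. The fitted log2 difference between KO and WT was 0.82 for Ly6e, 0.48 for Ly6a, 0.37 for Slfn9, 0.30 for Slfn5 and 0.15 for Slfn8, while Slfn1 and Slfn2 were at -0.39 and -0.14. Only Ly6e passed the threshold among the 8 members, beside 2.76% of all genes that passed and were higher in KO. Ly6e did not pass without KO M or without KO FL. Without WT M or without WT FL more members passed, as did many more of all tested genes. Without WT M the log2 difference of Slfn2 was 0.48, with the sign turned. Over all 8 libraries, 4 members (Ly6a, Ly6e, Slfn5 and Slfn9) had every KO value above every WT value, as did 11.5% of all tested genes.

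IL-33 set against NULL in WT asks what the infected cells show when the receptor gene is intact. Both WT libraries with IL-33 lay above both WT NULL libraries for 7 of the 8 tested members, the exception being Ly6c1, and for 24.0% of all tested genes. The fitted log2 change was 2.48 for Slfn1, 1.98 for Ly6a, 1.48 for Slfn2, 1.47 for Slfn5, 1.34 for Ly6e, 0.89 for Slfn8 and 0.57 for Slfn9. The count past the threshold was 3 members, all higher (Ly6a, Ly6e and Slfn5), beside 0.180% of all genes; the members were chosen with these values known. None of the 3 passed when either WT NULL library was left out. Without WT M or without WT FL more members passed, but so did many more of all tested genes, so nothing is read from it. Without WT FL they included Ly6c1, which was lower in WT M, at 2.81, than in the WT NULL pair, at 9.15 and 11.0. For Slfn1 the change depended on the WT M library, since the ratio to the NULL mean was 14 in WT M and 2.93 in WT FL, and likewise for Slfn2, at 4.30 in WT M and 1.81 in WT FL. For Ly6a, Ly6e, Slfn5, Slfn8 and Slfn9 the M and FL libraries gave close ratios, of 4.09 and 3.81, 2.64 and 2.44, 2.90 and 2.65, 1.76 and 1.92, and 1.55 and 1.41.

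With IL-33, 6 of the 8 tested members in WT stayed below their KO NULL mean, the exceptions being Slfn1 and Slfn2. As a share of the gap between the WT NULL mean and the KO NULL mean, the WT mean with IL-33 reached 1.9% for Ly6c1, 38.1% for Ly6e, 40.0% for Ly6a, 56.3% for Slfn8, 59.1% for Slfn5 and 69.1% for Slfn9. Slfn2 and Slfn1 passed the KO NULL mean, at 128% and 101% of the gap, through the WT M library.

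In KO cells, which are labelled as lacking the receptor, the fitted change with IL-33 was negative for 7 of the 8 tested members. Both KO libraries with IL-33 lay below both KO NULL libraries for Ly6a, Ly6e, Slfn1, Slfn5 and Slfn8, which are 5 of 8, beside 22.0% of all tested genes. None of the 8 members passed the threshold in limma, where all adjusted p were 1.0, and 2 (Ly6a and Slfn5) had an unadjusted p below 0.05. Of all genes 0.0193% passed, namely the alveolar type 2 markers Sftpb, Sftpc and Slc34a2, each higher with IL-33. The part of these cells in the members' changes was not tested. The fitted log2 change was -0.60 for Ly6a (95% interval -0.96 to -0.24), -0.23 for Slfn5 (-0.46 to -0.01) and -0.17 for Ly6e (-0.35 to 0.01). Slfn9 was the member with a positive value, 0.18 (-0.03 to 0.39). The intervals of Slfn1 (-2.32 to 0.81) and Ly6c1 (-1.99 to 1.45) were wide, so that changes within them were not detectable there.

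The change with IL-33 in KO minus that in WT was negative for 7 of the 8 members. It was -2.58 on the log2 scale for Ly6a, -1.70 for Slfn5, -1.52 for Ly6e, -3.23 for Slfn1, -1.52 for Slfn2, -1.18 for Slfn8 and -0.39 for Slfn9. This difference was among the values the set was chosen on, so nothing is read from the 3 members past the threshold (Ly6a, Ly6e and Slfn5), beside 0.0902% of all genes in that direction. It uses all 8 libraries, and the count fell to 0 without KO M, KO FL, or any 1 of the 4 NULL libraries.

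**Figure D3:**
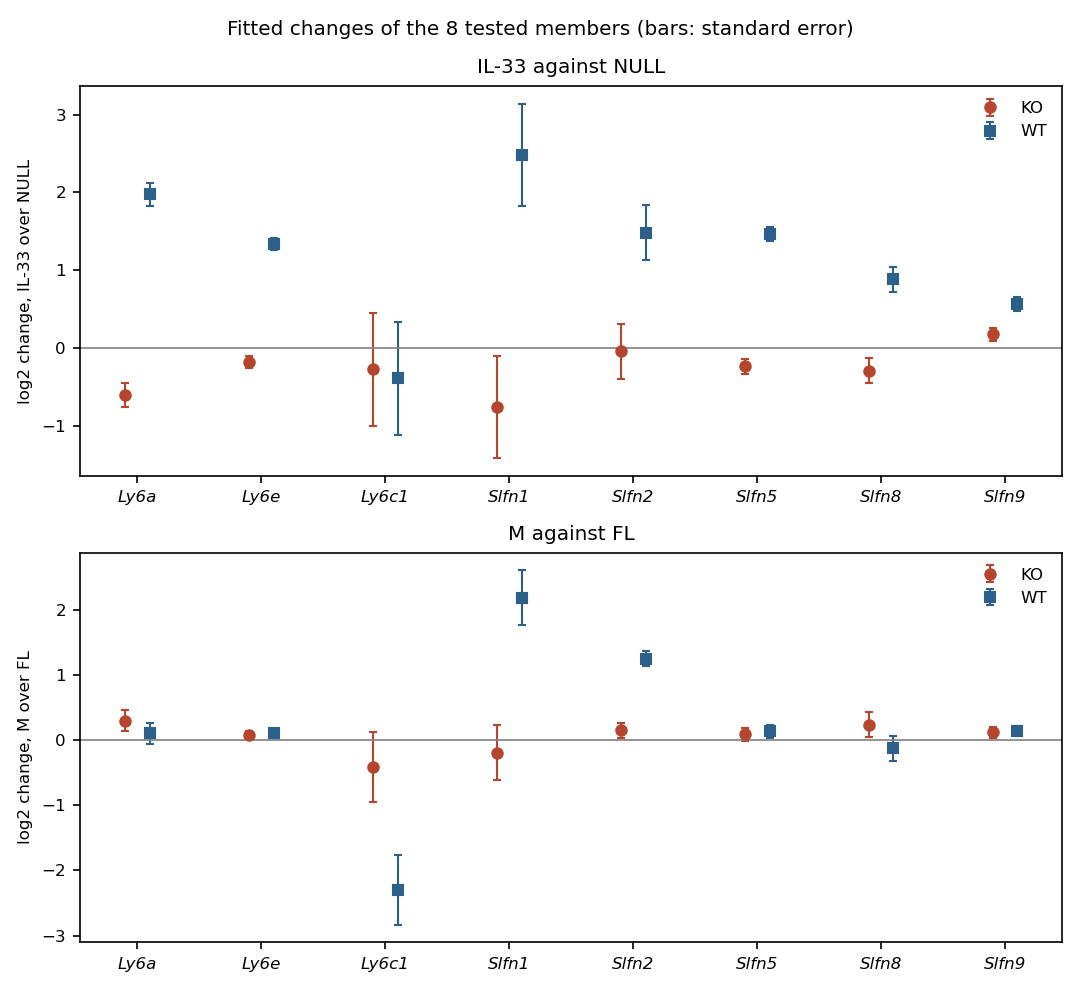
Fitted log2 change (vertical axis) with its standard error for the 8 tested members, for IL-33 over NULL above and for M over FL below, in KO (circles) and WT (squares). Above, WT points lie over the KO points for every member but Ly6c1; below, Slfn1 at 2.18, Slfn2 at 1.24 and Ly6c1 at -2.30 in WT stand away from 0.

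The last comparison sets mature against full-length IL-33, in a model that takes genotype out. None of the 8 members passed in limma, with adjusted p between 0.611 and 0.9549 and 1 unadjusted p below 0.05 (Ly6c1); over all genes 0.00% passed, while 886 had an unadjusted p below 0.05. Without KO M, Slfn1, Slfn2 and Ly6c1 passed, but so did a large part of all tested genes, so nothing is read from it. M was also set against FL within each genotype, a comparison added after the values had been seen. It has 1 library on each side, takes its spread from the NULL pairs and assumes that a lone library varies as they do. The Il33 level in M was 0.0751 times that in FL in KO and 0.419 times that in FL in WT.

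In WT, the log2 change of M over FL was 1.24 for Slfn2 (SE 0.12, adjusted p from limma = 0.0003), 2.18 for Slfn1 (SE 0.42, adjusted p = 0.0079) and -2.30 for Ly6c1 (SE 0.54, adjusted p = 0.0163). These were 3 of 8 members, and 36.0% of all genes passed, so the share of the members was near the background. For Ly6a, Ly6e, Slfn5, Slfn8 and Slfn9 the adjusted p ranged upward from 0.12, and the 95% intervals were narrow for most of them, at -0.01 to 0.23 for Ly6e, -0.06 to 0.33 for Slfn9, -0.10 to 0.36 for Slfn5, -0.28 to 0.49 for Ly6a and -0.58 to 0.33 for Slfn8. In KO no member passed, with no unadjusted p below 0.05, beside 0.0515% of all genes. The difference of these changes, KO minus WT, was -1.10 for Slfn2 (SE 0.16, limma adjusted p = 0.0045) and -2.38 for Slfn1 (SE 0.60, adjusted p = 0.0309), and 9.92% of all genes passed with a negative difference. Without either KO NULL library Slfn2 passed and Slfn1 did not.

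Markers of other cells moved with that result. In WT M against WT FL the log2 change was positive for all 9 measured macrophage markers and all 5 mesothelial markers. It was negative for all 9 fibroblast markers and all 7 pericyte and smooth muscle markers, with 1 library on each side. The median log2 change was 1.20 over the macrophage markers and -0.81 over the fibroblast markers, beside -0.02 over all genes. Among the macrophage markers Itgam stood at 1317 normalized counts in WT M and 426 in WT FL, and Lyz2 at 35415 in WT M and 15467 in WT FL. The endothelial markers Cdh5, Erg and Tie1 were lower in WT M, Cdh5 with 43.3 in WT M against 140 in WT FL, while Kdr was higher, with 199 in WT M against 67.4 in WT FL. The part of these cells in the levels of Slfn1, Slfn2 and Ly6c1 was not tested.

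**Figure D4:**
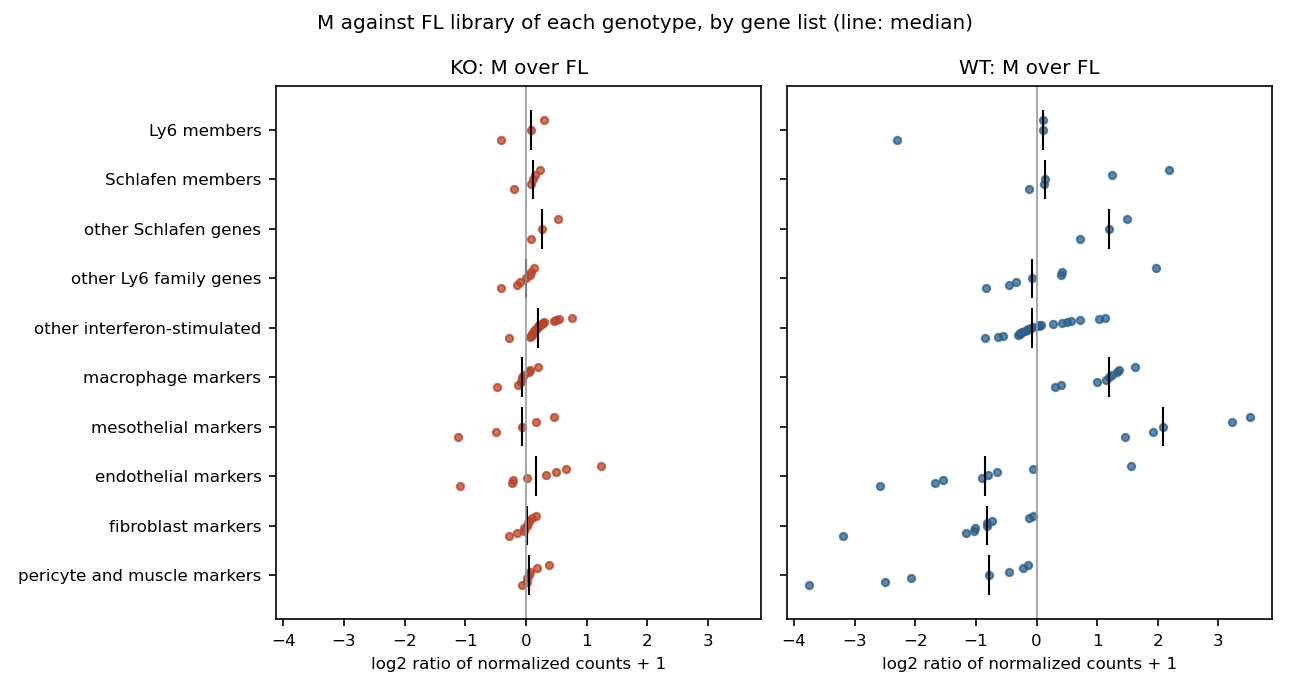
Log2 ratio of M over FL (normalized counts plus 1, horizontal axis) for each gene of 10 lists, in KO on the left and WT on the right, with a line at each list's median. In WT the macrophage markers have a median of 1.20 and the fibroblast markers of -0.81, and Slfn1 and Slfn2 lie at 2.18 and 1.24.

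Other Schlafen genes were read beside the members. Of 6 in the table, Slfn14 and Slfn5os were at 0 in all libraries and 3 were tested, namely Slfn3, Slfn4 and the pseudogene Slfn10-ps. None of the 3 passed in any of the 6 planned comparisons. Slfn4, a myeloid Schlafen gene in mouse, was at 16.1 normalized counts in KO M, 10.9 in KO FL and 20.5 and 23.2 in KO NULL, against 46.5 in WT M, 16.0 in WT FL and 6.57 and 6.26 in WT NULL. It was highest in WT M, as were Slfn1, Slfn2, Slfn10-ps and Slfn3, the last at 51.8 in WT M and 17.4 to 35.2 in the other libraries. Slfn10-ps was at 122 in KO M, 115 in KO FL and 130 and 121 in KO NULL, against 168 in WT M, 72.8 in WT FL and 25.7 and 41.0 in WT NULL. Its log2 change of WT M over WT FL was 1.20 (SE 0.34, adjusted p from limma = 0.0328).

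Of 39 other genes of the Ly6 family in the table, 7 reached a mean of 10 and 9 were at 0 in all libraries, among them Ly6g, the neutrophil surface marker. None of the 7 passed in the 6 planned comparisons, and their median log2 difference between KO NULL and WT NULL was -0.21. Plaur, the urokinase receptor, was the most abundant of them, at 4051 to 4125 normalized counts in KO and 2410 to 3225 in WT. Lynx1, a modulator of nicotinic receptors, was at 1593 to 1820 in KO and 989 to 2191 in WT. Neither followed the order of Ly6a and Ly6e, whose WT NULL pair was lowest. Between WT M and WT FL, with 1 library on each side, the log2 change was positive for 3 of the 7 and negative for 4. It was 0.42 for Plaur, 1.98 for Lypd1, 0.41 for Cd59a and -0.83 for Lynx1, with a median of -0.07 over the 7. Over all tested genes the median was -0.02. This comparison was added after the values had been seen. Ly6i, which shares 8.42% of the 31-base words of Ly6a, reached at most 2.0 normalized counts.

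The interferon pathway was read by role, from lists chosen with earlier results of these libraries known. Values of these genes are therefore a description, given without a p, and nothing is read from the counts past the threshold. Of 21 interferon ligand genes, 17 were at 0 in all libraries and none was tested; the highest single value was 3.54 normalized counts, for Ifnz, and Ifnb1 lay between 0 and 2.37. Interferon transcripts were thus at or near 0 at this depth. The 9 receptor and kinase genes were all measured. None passed in KO against WT under NULL. Jak2, a kinase of the type II receptor, passed with IL-33 present, at a log2 difference of 0.43 (SE 0.09). In that comparison 2.76% of all genes passed and were higher in KO. Ifnar1, a chain of the type I receptor, was at 1980 to 2084 normalized counts in KO and 1715 to 2147 in WT.

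Among 9 interferon-related transcription factors only Irf7, which amplifies the type I response, passed in the 6 planned comparisons. It was at 5535 normalized counts in KO M, 4559 in KO FL and 6642 and 6448 in KO NULL, against 2874 in WT M, 2159 in WT FL and 999 and 1056 in WT NULL. Its order among the libraries was that of Ly6a and Ly6e. The log2 difference of Irf7 between KO NULL and WT NULL was 2.67 (SE 0.15), and its log2 change with IL-33 in WT was 1.28 (SE 0.15). Of 6 feedback genes, 3 passed and were higher in KO NULL than in WT NULL, beside 2.58% of all genes. These were Usp18, which removes ISG15 from proteins and damps the receptor, Trex1, a DNA exonuclease, and Isg15 itself. Their log2 differences were 1.52, 0.74 and 0.98.

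Of 22 other interferon-stimulated genes, 18 passed as higher and 1 as lower in KO NULL than in WT NULL. The share of all genes that passed as higher was 2.58%. The list was chosen with earlier results known, so nothing is read from the count. The median log2 difference was 1.36. Zbp1, a nucleic acid sensor picked by its p, had a log2 difference of 3.57 (SE 0.14), and Oas2, a synthetase that activates RNase L, had 2.97. The gene that was lower was Ifi27, at -1.18. With IL-33 in WT, 4 of the 22 passed as higher (Oas2, Zbp1, Oas1a and Trim30a), beside 0.180% of all genes, and the median log2 change was 0.56. In KO none passed in limma and the median was -0.21, while 333 of all genes had an unadjusted p below 0.05. The difference of those changes passed for Zbp1 and Oas2, at -2.39 and -2.35, beside 0.0902% of all genes in that direction. For the same comparisons the medians of the 8 members were 1.69, 1.40, -0.25 and -1.52. The comparisons share libraries, so the medians are set side by side without a test. Between WT M and WT FL, 4 of the 22 were higher and 5 were lower, with a median of -0.08, beside the 36.0% of all genes that passed there.

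Across the 8 libraries, as a description with no test, Ly6a, Ly6e, Slfn5 and Slfn8 followed each other with Pearson's r between 0.95 and 0.99 on log2 values. Slfn1 and Slfn2 followed each other at 0.97 and Ly6a at 0.86 and 0.83. Ly6c1 correlated with Ly6a at 0.38 and with Slfn2 at -0.17. These libraries share the 2 genotypes and the WT M library, which alone can give high values. Among 12553 other genes with a mean of at least 50, the 5 most like Ly6e were Zbp1 at 0.999, Ifi27l2a at 0.998, Oas1a and H2-Q6 at 0.995 and Trim30a at 0.994, and 338 genes had r above 0.9. The 5 most like Slfn9, the Schlafen member of highest mean, were Smndc1 at 0.991, Gnl1 at 0.990, Snrpa1 at 0.989 and Lpin3 and Ldha at 0.987, and 346 genes had r above 0.9.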

How the data were processed

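The deposited values are signal, namely normalized counts per gene, made by the authors with Salmon, DESeq2 and the build GRCm38.p6 per the submitters' processing notes, while tool versions are not given in the sources used here; raw counts and depth in reads were not used here. The authors deposited 2 tables that hold the same values, with 2 of 434648 cells not identical and a largest relative difference of 6.5e-15. The 8 columns are named by the titles of the fibroblast samples and were read as such, although 1 table is labelled for unseparated lung cells; the cell type thus rests on the column titles, and the unseparated cells were not analysed here. Of 54331 gene IDs, 54097 were matched to a symbol.

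The members, the gene lists and the tests were chosen with earlier results of these data known. Values were taken to log2 after adding 1, and 15527 genes with a mean of at least 10 were tested with limma-trend (R 4.3.3 with limma 3.58.1), two-sided, adjusting p by Benjamini-Hochberg over all tested genes in each comparison, with a threshold of 0.05. The fit had 4 groups, genotype by NULL or IL-33, the M and FL libraries standing for IL-33 (degrees of freedom 4 residual, 2.82 prior), so its spread includes the difference between M and FL. M against FL came from an additive model, and M against FL within a genotype from 6 groups (degrees of freedom 2 residual, 4.78 prior), a comparison added after the data were seen. The fold changes fitted after adding 1 understate changes of low genes. Medians of all genes lay within 0.1 of 0 in every comparison.

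The genes named were the 9 members, other family and interferon genes by smallest p, and by likeness the 5 genes of highest Pearson's r on log2 values with the Ly6 and the Schlafen member of highest mean; Slfn4, Slfn10-ps, Plaur, Lynx1, Ly6g, Ly6i, Ifnar1 and the markers were named after their values were seen. Positions came from GENCODE on GRCm38 and promoter windows from RefSeq on GRCm38.p6. The scripts were tested on simulated data. Tables and figures were made in Python 3.11.15 with matplotlib 3.10.9, scipy 1.17.1, pandas 2.3.3 and numpy 2.4.6. 1 gene of the interferon lists is not reported here.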

Additional observations from a re-analysis of the deposited data

Results flagged for a closer look

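The change with IL-33 had opposite signs in KO and WT for 3 members, whose difference also passed the threshold. On the log2 scale, KO minus WT, it was -2.58 for Ly6a, -1.52 for Ly6e and -1.70 for Slfn5. IL-33 over NULL was 0.662 in KO and 3.95 in WT for Ly6a, 0.886 in KO and 2.54 in WT for Ly6e, and 0.852 in KO and 2.77 in WT for Slfn5. The members were chosen with these values known, so the passing is no support. None of the 3 passed with a replicate block, without KO M, without KO FL or without any 1 of the 4 NULL libraries.

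The log2 change of M over FL in KO minus that in WT was -2.38 for Slfn1 and -1.10 for Slfn2, past the threshold in a comparison added after the values had been seen. M over FL was 0.869 in KO and 4.77 in WT for Slfn1, and 1.11 in KO and 2.37 in WT for Slfn2. Each of these ratios rests on 1 library on each side, and the spread is that of the NULL pairs. Slfn1, which reached the testing level through its high libraries, did not pass with a replicate block or without either KO NULL library, and Slfn2 did not pass with no filter on low values. In the WT M library the summed macrophage markers stood at 44593 normalized counts, against 19597 in WT FL. Their part in the ratios was not tested.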

How the results depend on the processing

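The counts of members past the threshold kept within 1.5 times of their value with 0.5 or 8 added before log2, with no filter, with a mean of at least 50, with TMM factors and with quantile normalization in all 6 planned comparisons. In the comparisons added later, a mean of at least 50 left 1 member in M against FL in WT and 1 in the difference of M against FL, where no filter also left 1. Fitting 6 groups raised the counts to 7 for IL-33 in WT, 4 for KO with IL-33 and 7 for the difference of IL-33 effects. In these comparisons many more of all tested genes passed with 6 groups as well, so nothing is read from the higher counts. With a replicate block for the first and second NULL library, there were 0 members past the threshold for the difference of IL-33 effects and 1 for the difference of M against FL, and no other count moved by over 1.5 times; the deviations of same-numbered NULL libraries correlated at 0.0231 over 15527 genes, and with 2 pairs the numbers were taken as names only.

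Leaving out 1 library at a time moved the count from 0 to 8 for IL-33 in WT, 3 to 7 for KO in NULL, 0 to 5 for KO with IL-33, 0 to 7 for the difference of IL-33 effects, 0 to 3 for M against FL and 1 to 2 for the difference of M against FL. Where a count rose, many more of all tested genes passed too, so nothing is read from the rise. A lone library left in a group is then assumed to vary like the other groups. M against FL within a genotype could not be fitted without its own libraries. The log2 difference of Slfn2 between KO and WT with IL-33 ran from -0.76 without WT FL to 0.48 without WT M. Of 756 log2 values of single members under an alternative, 640 were classed as the same. Those past the threshold in both fits kept their sign, and their size was not compared. Those not past it in either fit moved by no more than the residual SD of the main fit. The causes were not tested. The 12-base form of the response element was found in 2 members, against 3 for the 10-base form. Depth limits Ly6c1, Ly6c2 and Slfn1, which lay at a few normalized counts in some libraries.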
